A study of Mus musculus with 8 samples.

Results

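The complement system was described in mouse skin through 9 genes, C3, C4b, C1s1, C1ra, Serping1, Cfd, C1qa, C1qb and C1qc, out of 31053 genes listed for each library. The genes were chosen by name, and all 9 were found by symbol in the gene list of every library. Single cells came from the dorsal skin of female BALB/c mice aged 14 to 16 weeks that received subcutaneous injections of either PBMCsec or vehicle, with 4 libraries in each group. PBMCsec is the secretome of irradiated human peripheral blood mononuclear cells, which is the mixture of molecules these blood cells release into culture medium. The labels do not give the control solution, the time of sampling or whether the skin of a given library was scarred, so these cannot be told apart here. They also do not say whether a library came from 1 mouse, and each library was treated as 1 sample, so p-values measure only the spread between libraries.

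Complement is a cascade of secreted proteins that marks microbes and damaged cells for removal and drives inflammation. In the classical pathway, the recognition molecule C1q, assembled from the chains encoded by C1qa, C1qb and C1qc, activates the proteases C1r and C1s, which then cleave C4 and C2, and the resulting enzyme cleaves C3. Serping1 encodes the C1 inhibitor, a serpin that removes active C1r and C1s, and Cfd encodes factor D, the protease that starts the amplification loop of the alternative pathway and is typical of fat cells. Most plasma complement is made by the liver, C1q is known as a product of macrophages and related cells, and fibroblasts are known to make several early components.

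The genes sit in a few places of the genome (GRCm38, GENCODE M21). C1qb, C1qc and C1qa lie side by side on the minus strand of chr4:136880129-136898803, with 3616 bases between C1qb and C1qc and 2851 bases between C1qc and C1qa. C1ra (chr6:124512405-124523443, plus strand) and C1s1 (chr6:124530345-124542359, minus strand) lie 6901 bases apart on opposite strands. C4b (chr17:34728380-34743882) and C3 (chr17:57203970-57228136) are both on the minus strand of chromosome 17, Serping1 is at chr2:84765387-84775444 on the minus strand and Cfd at chr10:79890853-79892655 on the plus strand. C1ra, C1s1 and C4b have close copies, C1rb, C1s2 and C4a. Of the 75-base words in the last 500 bases of their transcripts, where a 3′ assay reads, 14.3% of those of C1ra also occurred in C1rb, 14.9% of those of C1s1 in C1s2 and 14.6% of those of C4b in C4a, so counts of these 3 genes are uncertain to the extent that reads fell there. C4a is not in the gene list of the libraries and has no counts to set beside those of C4b, unlike C1rb and C1s2.

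The 250 bases before the RefSeq transcription start are shown for C1qb and C1qc, whose UMIs came from the same cells, and for C3, the gene with the widest range of levels between fibroblast clusters (RefSeq, GRCm38.p6, minus strand, 5′ to 3′). Promoters were found for 6 of the 9 genes. Capitals mark GAGGAA, the core bound by PU.1, in C1qb and C1qc, and TTGCNNAA, the core bound by C/EBP factors, in C3, both searched on either strand. Of the promoters not shown, that of a C1s1 start also held TTGCNNAA, and that of its other start did not. Those of C1ra and Cfd held neither core. Among 32851 promoters of the same length, 23.3% held GAGGAA and 9.56% held TTGCNNAA, so a match describes these letters and not a used site.
C1qb, chr4:136886201-136886450: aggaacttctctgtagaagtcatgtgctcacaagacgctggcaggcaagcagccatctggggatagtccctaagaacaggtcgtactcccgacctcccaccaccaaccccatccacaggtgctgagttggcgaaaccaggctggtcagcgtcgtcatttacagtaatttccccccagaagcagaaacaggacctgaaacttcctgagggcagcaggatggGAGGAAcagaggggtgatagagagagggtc
C1qc, chr4:136892915-136893164: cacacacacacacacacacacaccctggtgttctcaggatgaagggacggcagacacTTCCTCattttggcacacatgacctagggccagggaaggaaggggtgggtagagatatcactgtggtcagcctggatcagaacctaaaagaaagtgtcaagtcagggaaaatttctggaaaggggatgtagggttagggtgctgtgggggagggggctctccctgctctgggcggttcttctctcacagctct
C3, chr17:57228137-57228386: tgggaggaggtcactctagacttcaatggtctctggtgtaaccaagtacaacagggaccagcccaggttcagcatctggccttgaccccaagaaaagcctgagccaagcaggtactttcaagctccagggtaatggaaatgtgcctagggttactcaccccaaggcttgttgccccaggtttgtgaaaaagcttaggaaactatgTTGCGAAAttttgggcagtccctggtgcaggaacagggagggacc

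Expression was measured as UMIs, unique molecular identifiers that count captured RNA molecules near their 3′ end. The libraries held 14753926 to 37880651 UMIs, and 6150 of 26231 cell barcodes passed the limits of 500 to 4000 genes, 20000 UMIs and 5% mitochondrial counts, with 151 to 1659 cells per library and median depths of 6156 to 9521 UMIs. Levels are given as CPM, the UMIs of a gene per 1000000 UMIs of a cell class in the library, after leaving out 3 non-coding genes. The library vehicle 1 stood apart, since those 3 genes took 18.7% of the UMIs of its fibroblasts against 0.375% to 1.90% in the other libraries. Vehicle 1 and vehicle 2 were also the smallest libraries, with 31 and 27 fibroblasts and 6 and 5 macrophages. The 28 pairs of libraries shared at most 10 barcodes each. Cells were clustered without the complement genes and the clusters named from marker genes as fibroblast-like (FB, 1563 cells), keratinocyte-like including hair follicle cells (KC, 2544), T cell-like (TC, 748), dendritic cell-like (DC, 234), macrophage-like (Macro, 158), Langerhans cell-like (LC, 124), neutrophil-like (Neutro, 119), lymphatic endothelial-like (LEC, 50), smooth muscle or pericyte-like (SMC/PC, 38) and endothelial-like (EC, 34), and are called by these names without the suffix from here on. In 538 cells, 8.75% of all, no name was given. Pdgfra stood at 488 CPM in FBs and at most 4.64 CPM in every other class. Markers of macrophages, DCs and LCs overlapped more. Cd207 was 3932 CPM in LCs and 336 CPM in DCs. Mrc1 was 1386 CPM in macrophages, 427 CPM in DCs and 149 CPM in LECs. The macrophage marker Csf1r was higher in LCs (911 CPM) than in macrophages (663 CPM).

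Complement transcripts divided into a fibroblast set and a macrophage set. FBs held 96.9% of all C3 UMIs, 96.8% of C4b, 97.0% of C1s1, 97.6% of C1ra and 97.6% of Serping1 UMIs, although they made up 25.4% of the cells. Macrophages, 2.57% of the cells, held 87.5% of C1qa, 96.5% of C1qb and 95.6% of C1qc UMIs. Cfd was nearly missing, with 25 UMIs in all.

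C3, the component on which the complement pathways converge, was measured at 2140 ± 665 CPM in FBs (SD, n = 8 libraries), with a lowest library of 1495, a median of 1832 and a highest of 3173 CPM. The FBs of every library stood above the other classes. Macrophages had 252 ± 111 CPM (n = 6 libraries with at least 10 macrophages), a level below that of FBs in 6 of 6 libraries, by 2.92 on the log2 scale (exact sign-flip permutation test, two-sided, p = 0.03125, the smallest that 6 libraries allow, adjusted p = 0.125). DCs were lower again, by 2.74 on the log2 scale in 6 of 6 libraries (exact p = 0.03125, adjusted p = 0.125). With up to 10% mitochondrial counts, all cells were clustered and named anew, so the classes there are other clusters. The mean over 8 libraries was then 84.0 in place of 31.8 CPM in DCs and 229 in place of 311 CPM in macrophages. Neutrophils had 253 ± 130 CPM of C3 in the 4 libraries with enough cells, at a median depth of 1493 UMIs per cell. In LECs, pooled over libraries, C3 reached 268 CPM from 90 UMIs, and in LCs and ECs it was represented by 2 and 0 UMIs. Keratinocytes and T cells did not differ in C3 beyond their spread (0.21 on the log2 scale, exact p = 0.805, adjusted p = 1.0).

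C4b encodes C4, the substrate of C1s. Its level in FBs was 634 ± 186 CPM (n = 8), from 380.0 to 880 with a median of 655 CPM. Macrophages had 83.1 ± 86.7 CPM (n = 6), from 0 to 224 CPM, and were below FBs in 6 of 6 libraries by 3.46 on the log2 scale (exact p = 0.03125, adjusted p = 0.125). With up to 10% mitochondrial counts and cells clustered anew, the mean over 8 libraries in macrophages was 319 in place of 79.4 CPM, against 657 CPM in FBs. No C4b UMI was seen in the 119 neutrophils or the 50 LECs, the latter at a median depth of 6910 UMIs.

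The C1 proteases varied least between libraries within the fibroblast set, as shares of their means. C1s1, which encodes the mouse C1s protease, had 617 ± 78.9 CPM in FBs (n = 8; 528 to 757, median 590), and C1ra, which encodes C1r, had 247 ± 44.3 CPM (n = 8; 212 to 353, median 236). Both were below FBs in macrophages in 6 of 6 libraries, by 5.28 and 3.90 on the log2 scale (exact p = 0.03125 and adjusted p = 0.125 for each). After adjustment, no pair of neighbouring classes among FBs, macrophages, DCs, keratinocytes and T cells passed for either gene. Nor did any such pair pass for the other genes compared in this way, with no adjusted p below 0.125. SMC/PCs, pooled, carried 407 CPM of C1s1 from 81 UMIs and 65.2 CPM of C1ra from 13 UMIs, beside Col1a1 at 1320 CPM and no Pdgfra UMI.

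Serping1, the gene of the C1 inhibitor, had 1565 ± 410 CPM in FBs (n = 8), from 868 to 2161 with a median of 1624 CPM. The class next in the order among those with enough libraries was T cells, lower in 8 of 8 libraries by 6.75 on the log2 scale (exact p = 0.0078125, the smallest 8 libraries allow, adjusted p = 0.125). The pooled SMC/PCs had 883 CPM from 176 UMIs, and LECs had 340 CPM from 114 UMIs. Macrophages held 2 Serping1 UMIs in 158 cells. ECs held 5 Serping1 UMIs in 34 cells (23.2 CPM pooled). For SMC/PCs, LECs and ECs 1 library at most held 10 cells, and no test was made.

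**Figure D1:**
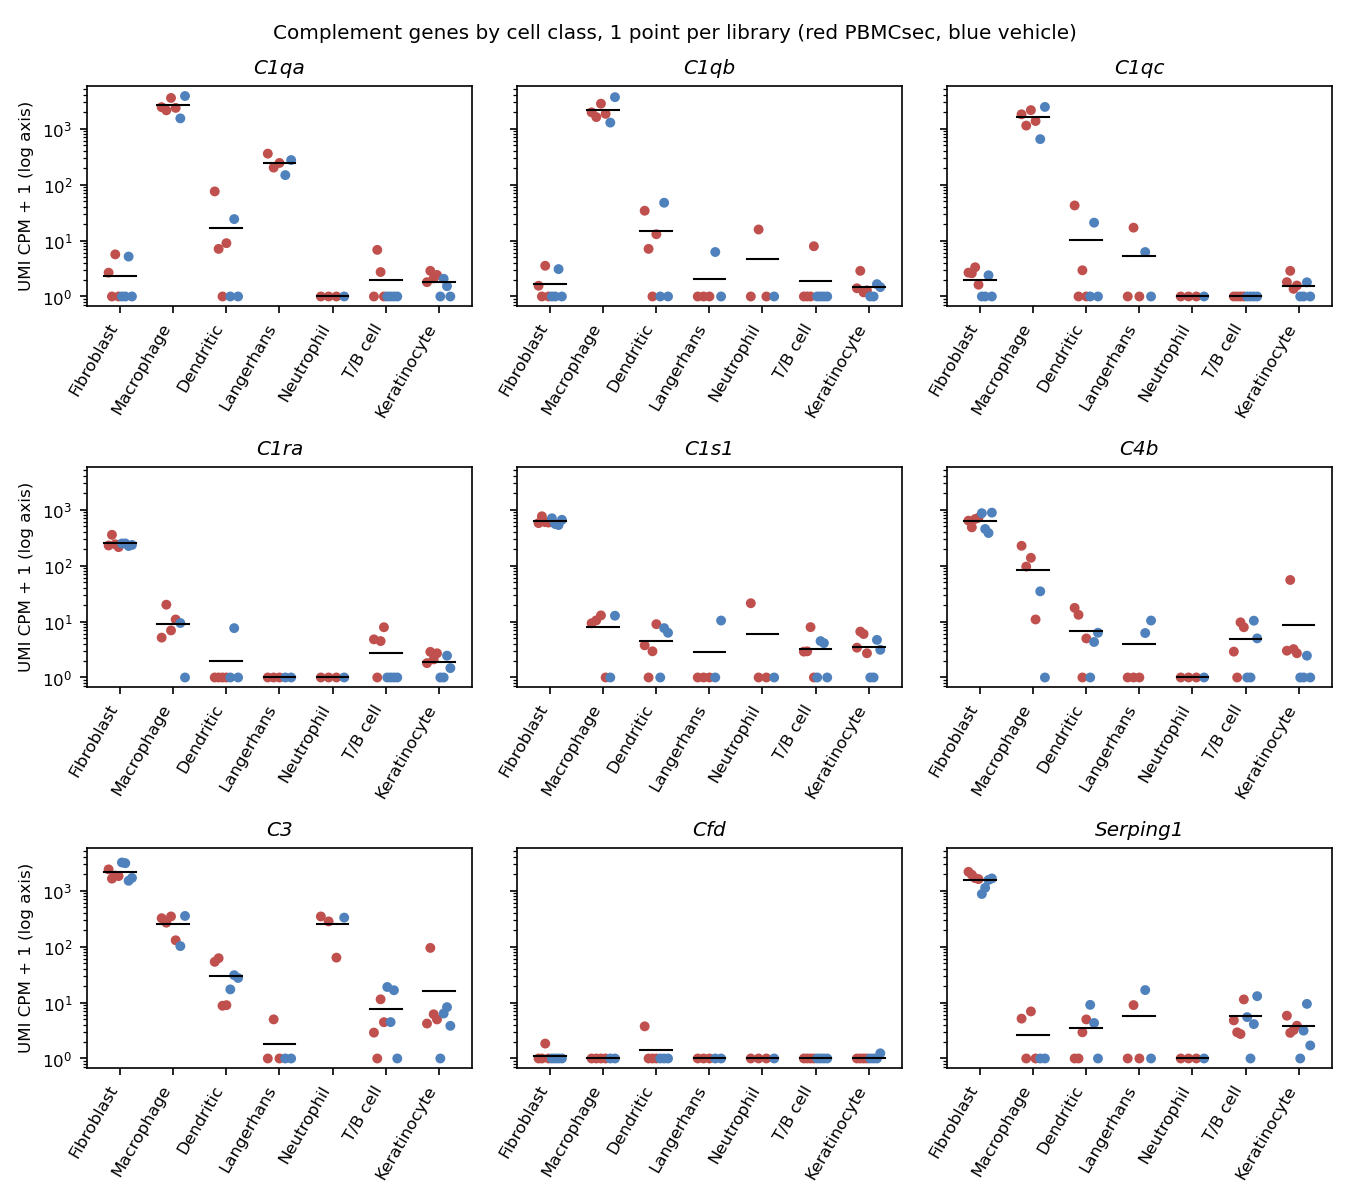
CPM + 1 of the 9 complement genes (vertical, log axis) by cell class (horizontal), with 1 point (red PBMCsec, blue vehicle) for each library that held at least 10 cells of the class and a black line at the mean. C3, C4b, C1s1, C1ra and Serping1 are highest in fibroblasts, where C3 lies between 1495 and 3173 CPM, and C1qa, C1qb and C1qc are highest in macrophages, where C1qa lies between 1520 and 3813 CPM.

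For the fibroblast set, the share of cells with at least 1 UMI also set FBs apart from T cells and keratinocytes. It did not set them apart from every class, since Serping1 was seen in 89.5% of SMC/PCs and 84% of LECs. In FBs, Serping1 was seen in 95.3% of cells (exact 95% binomial interval 94.2 to 96.3), C1s1 in 90.9%, C1ra in 73.3%, C3 in 73.2% and C4b in 67.2%, at a median depth of 8777 UMIs. T cells, which should lack these genes, had a median depth of 3339 UMIs and shares of 1.6% for Serping1, 1.07% for C1s1, 0.668% for C1ra, 2.14% for C3 and 1.47% for C4b. With cells thinned to 2000 UMIs, leaving out 53 FBs and 100 T cells that were shallower, 67.6% of FBs kept a C3 UMI against 1.08% of T cells, and 35.2% kept a C1ra UMI against 0.617%. Keratinocytes had C3 in 3.81% of cells before and 1.01% after thinning to 2000 UMIs, and 0.804% against 0.539% of T cells after thinning to 1000 UMIs. Intervals cover counting error only.

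Within FBs the 5 genes were often seen in the same cell. All 5 were detected in 812 of 1563 FBs (52.0%) and none of them in 33 (2.11%). Across cells, the Pearson correlation of log-normalized values was 0.67 for C3 with C4b and 0.29 to 0.47 for the other pairs, as a description, since the cells share libraries and depth differs between them. The mean count per FB was 16.1 UMIs of C3, with up to 193 in 1 cell, and 14.6 UMIs of Serping1, with up to 95.

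C3 and C4b were present in some fibroblast clusters and nearly missing in others, whereas C1s1, C1ra and Serping1 were seen in all of them. Fibroblasts fell into 8 clusters, 7 of which carried the markers of a subtype. C3 was abundant in the cluster with Mgp, Angptl1 and Apod (Mgp-type, cluster 0), with 2213 ± 600 CPM (n = 8 libraries with at least 4 cells), and in both fascia-type clusters with Pi16 and Dpp4, with 3640 ± 1753 CPM in cluster 4 and 3241 ± 1312 CPM in cluster 14 (n = 8 each). The inflammatory cluster with Ptx3, Ccl2 and Il6 had 2599 ± 661 CPM (n = 5). In the Cxcl12-type dermal cluster C3 was 494 ± 402 CPM (n = 8), from 44.9 to 1219 CPM. In the hair follicle dermal sheath and papilla clusters 20 and 29 it was nearly missing, with 3 UMIs in 122 cells of cluster 20.

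The planned comparison of neighbouring clusters needed 10 cells of both clusters in 6 libraries, which the Mgp-type and Cxcl12-type clusters met. C3 was higher in the Mgp-type cluster in 6 of 6 libraries by 2.85 on the log2 scale (exact sign-flip permutation test, p = 0.03125, the smallest possible, adjusted p = 0.0938 over 9 genes). C4b was higher there in 6 of 6 by 2.47 and Serping1 in 6 of 6 by 0.45 (exact p = 0.03125, adjusted p = 0.0938 for both). C1s1 was higher in 5 of 6 libraries by 0.44 (exact p = 0.0625, adjusted p = 0.141), and C1ra in 4 of 6 by 0.22 (exact p = 0.25, adjusted p = 0.45). No comparison passed the adjustment.

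With the minimum lowered to 4 cells, chosen after the cell numbers were seen, C3 was higher in the Mgp-type than in the Cxcl12-type cluster in 8 of 8 libraries by 2.64 on the log2 scale (exact p = 0.0078125, adjusted p = 0.225). C3 in the Cxcl12-type cluster was in turn above papilla cluster 29 in 6 of 6 libraries by 4.34 (exact p = 0.03125, adjusted p = 0.225). The fascia-type clusters 4 and 14 did not differ in C3 beyond their spread (0.11, higher in cluster 4 in 3 of 8, exact p = 0.531), and cluster 14 was above the Mgp-type cluster by 0.50 in 6 of 8 (exact p = 0.0703, adjusted p = 0.23). C4b did not separate cluster 4 from the Mgp-type cluster (exact p = 0.992). C1s1 and C1ra were lower in cluster 29 than in the next higher cluster with enough libraries in 6 of 6 libraries, by 1.94 and 2.31 (exact p = 0.03125, adjusted p = 0.225 for each).

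The ratio of C3 to Serping1 transcripts therefore varied from cluster to cluster. Pooled over cells, C3 UMIs per Serping1 UMI were 0.967 in the Mgp-type cluster, 1.79 and 2.01 in the fascia-type clusters and 2.04 in the inflammatory cluster. They were 0.218 in the Cxcl12-type cluster, 0.204 in the unnamed fibroblast cluster 28, 0.00442 in cluster 20 and 0.0112 in cluster 29. Serping1 itself was 2299 CPM pooled in cluster 28, against 2129 CPM in the Mgp-type, 1620 CPM in the Cxcl12-type, 736 CPM in cluster 20 and 248 CPM in cluster 29. Of all C3 UMIs of fibroblasts, the Mgp-type cluster held 32.2% and the fascia-type clusters 30.3% and 23.5%, and the Cxcl12-type cluster held 2.99% with 15.5% of the cells.

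**Figure D2:**
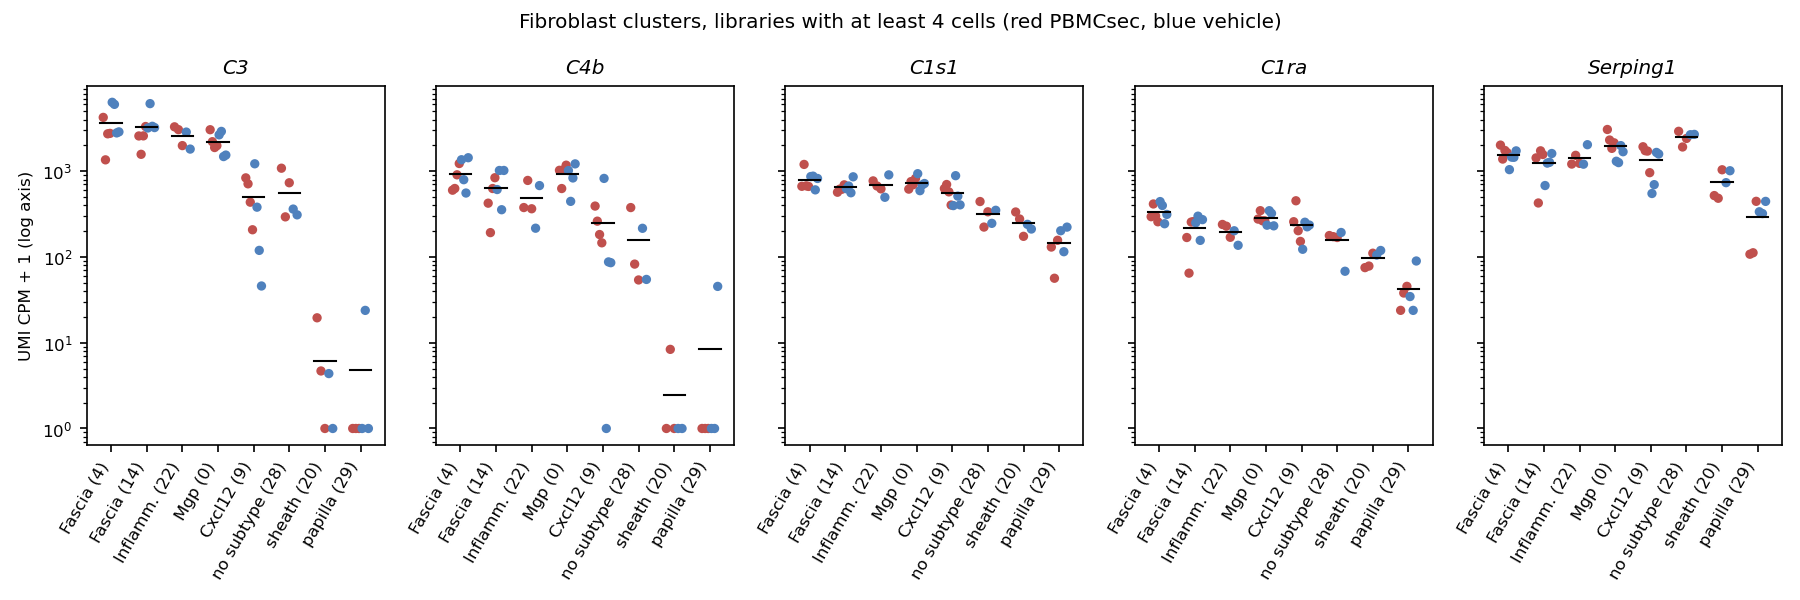
CPM + 1 of C3, C4b, C1s1, C1ra and Serping1 (vertical, log axis) in each fibroblast cluster (horizontal), with 1 point (red PBMCsec, blue vehicle) for each library that held at least 4 cells of the cluster and a black line at the mean. C3 and C4b drop in the Cxcl12-type cluster and are near 0 in the dermal sheath and papilla clusters, where C1s1, C1ra and Serping1 are lower but present.

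C1q transcripts had their highest levels in macrophages. A C1qa UMI was seen in 53.8% of macrophages and, at lower levels, in 62.1% of LCs. In the 6 libraries with at least 10 macrophages, C1qa was 2620 ± 874 CPM (SD; 1520 to 3813), C1qb 2180 ± 874 CPM (1277 to 3638) and C1qc 1584 ± 664 CPM (647 to 2433). Each exceeded its level in DCs in 6 of 6 libraries, by 6.92, 6.62 and 6.49 on the log2 scale (exact p = 0.03125, adjusted p = 0.125 for each). With up to 10% mitochondrial counts, the mean over 8 libraries in DCs was 126 in place of 13.9 CPM for C1qa, 127 in place of 18.8 CPM for C1qb and 78.4 in place of 11.2 CPM for C1qc, against 3305, 2311 and 2045 CPM in macrophages. Vehicle 1 and vehicle 2, with 6 and 5 macrophages, had 273 and 379 CPM of C1qa, below the other libraries. DCs held 37 C1qa UMIs in 234 cells, 27 of them in PBMCsec 1.

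The macrophages were uneven in C1q from cell to cell. Of 158 cells, 78 (49.4%) had UMIs of all 3 chains, 69 had none and 11 had 1 or 2 of them. The cells with all 3 held a median of 21 C1qa, 19 C1qb and 11.5 C1qc UMIs. Across macrophages the log-normalized values of the 3 genes correlated at 0.922 to 0.969, a description over 158 cells from 8 libraries. Depth differed little between the sets of cells, with a median of 6486 UMIs in cells with all 3 chains and 5418 in cells with none. T cells had C1qa in 0.535% of cells, C1qb in 0.267% and C1qc in 0 of 748 cells, which allows a share of cells with a UMI of up to 0.401% (3 counts of the total) and does not limit expression below detection at their depth.

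**Figure D3:**
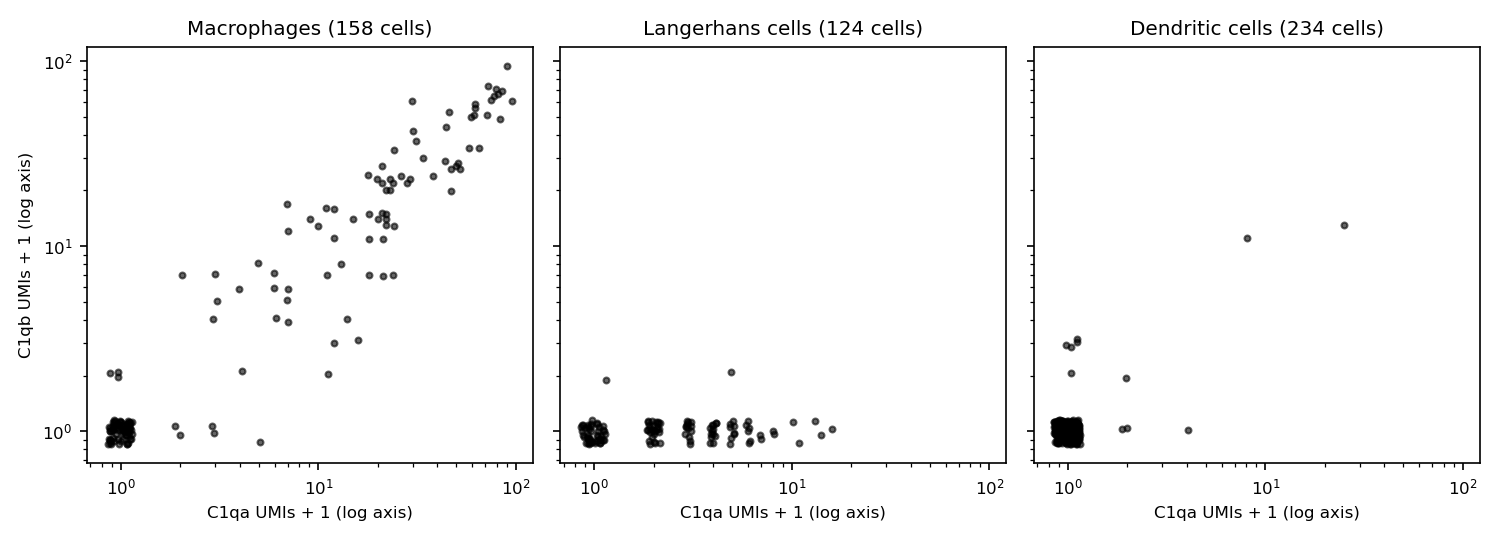
UMIs + 1 of C1qa (horizontal, log axis) and C1qb (vertical, log axis), with 1 jittered point per cell, in macrophages, Langerhans cells and dendritic cells. Macrophages lie along a diagonal up to 95 C1qa and 93 C1qb UMIs, with 69 cells at 0 for all 3 chains, whereas Langerhans cells extend along the C1qa axis to 15 UMIs with at most 1 C1qb UMI.

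Other genes differed with the C1q split, given here as a description because the cells were chosen on C1q. Macrophages with all 3 chains had 1749 CPM of Pf4 and 549 CPM of Folr2, markers of resident tissue macrophages, against 35.4 and 22.7 CPM in macrophages with none. Mrc1, the mannose receptor, was 2072 against 470 CPM and Ms4a7 1463 against 291 CPM, each higher in cells with all 3 chains in 6 of 6 libraries. Cd68 was 641 against 584 CPM and Fcgr1 313 against 341 CPM. Complement genes outside C1q also differed. C3 was 178 CPM in cells with all 3 chains and 404 CPM in those with none, and was higher in the former in 1 of 6 libraries. C4b was 148 against 17.7 CPM, higher in the former in 4 of 6. Fcna, which encodes a ficolin that starts the lectin pathway, was 230 against 2.53 CPM, and C3ar1, the receptor of the fragment C3a, was 439 against 220 CPM. Itgam and Itgb2, the chains of complement receptor 3, were 211 against 354 and 113 against 308 CPM. Of the 10 dendritic cell markers of the fixed list, Flt3 and Ccl22 had no UMI on either side, and Mgl2 (612 against 354 CPM), Cd209a (106 against 189 CPM) and Itgax (72.0 against 63.2 CPM) were present on both. Their part in the split was not tested.

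Langerhans cells carried C1qa with few UMIs of the other chains. C1qa was 243 ± 78.6 CPM in LCs (n = 5 libraries with at least 10 cells, 146 to 355 CPM), and it was seen in 77 of 124 cells (62.1%, exact interval 52.9 to 70.7) at a median depth of 7400 UMIs. Thinned to 2000 UMIs, 30.8% of LCs kept a C1qa UMI against 0.617% of T cells. C1qb was seen in 2 and C1qc in 7 of the 124 cells, and all 7 also had C1qa. The LCs held 243 C1qa, 2 C1qb and 10 C1qc UMIs, which is 0.00823 C1qb and 0.0412 C1qc UMIs per C1qa UMI. In macrophages these ratios were 0.812 and 0.620. C1qa UMIs were found in the LCs of all 8 libraries, in 33.3% to 100% of the cells, the lowest share being 2 of 6 cells in PBMCsec 2. The macrophage gene Mrc1 was at 1.02 CPM in LCs, and Csf1r at 911 CPM.

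Cfd was not measurable as a skin level. Its 25 UMIs lay in 5 cells, and 19 of them in 1 cell without a class name, from PBMCsec 3. That cell held 848 UMIs, with 23 of Fabp4, 30 of Car3, 5 of Cidec, 3 of Adipoq and 0 of Plin1, the 5 fat cell markers of the fixed list. Fabp4 was not particular to it, with 4549 UMIs in 166 kept cells. No other kept cell had a UMI of Adipoq or Cidec. FBs had Cfd in 2 of 1563 cells (0.128%), and T cells in 0 of 748.

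The other genes of the pathway were taken from a list of 52 by role, of which 51 were found, all but C4a. At least 50 CPM in some class was reached by 25 of the 51, 17 stayed under 5 CPM in every class and 8 had no UMI. Among the highest in FBs were Calr, a chaperone that can bind C1q, with 710 ± 191 CPM, the scavenger receptor gene Lrp1 with 634 ± 87.7 CPM, and Cd55, which encodes the decay accelerator that dismantles C3 convertases, with 589 ± 230 CPM (n = 8 each). The collectin gene Colec12 followed with 170 ± 40.2 CPM and the C1s copy C1s2 with 169 ± 39.7 CPM (n = 8 each). C2, the partner of C4 in the classical convertase, was 88.5 CPM pooled in FBs. Among the highest in macrophages were Calr with 645 ± 136 CPM, Cfp, the gene of the stabilizer properdin, with 360.1 ± 79.5 CPM, C3ar1 with 340.4 ± 107 CPM, Itgam with 247 ± 45.6 CPM and Lrp1 with 233 ± 64.1 CPM (n = 6 each). Neutrophils carried C5ar1, the receptor of the fragment C5a, at 542 CPM pooled.

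**Figure D4:**
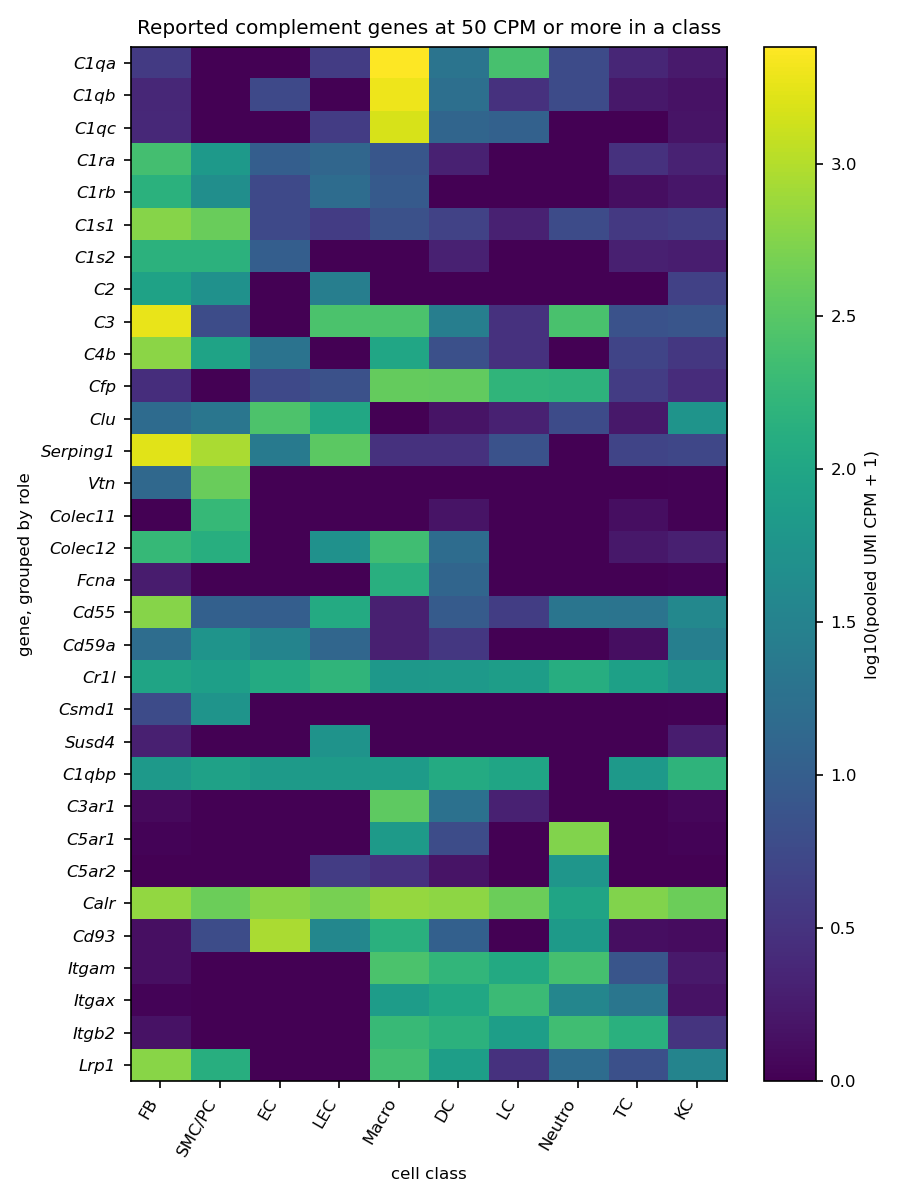
Pooled CPM + 1 (colour, log10 scale) of reported complement genes with at least 50 CPM in some class (vertical, by role) in each cell class (horizontal). The C1 proteases, C3, C4b and Serping1 are brightest in the fibroblast column and the C1q chains in the macrophage column, where C1qa reaches 2403 CPM.

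Genes outside complement with the most similar pattern were found by the Pearson correlation of log2(CPM + 10) over 17 class and cluster profiles among 7584 genes. The closest to C3 were Rhou (0.87), Fn1 (0.86) and Tmeff2 (0.86), and to C4b Eya4 (0.96), Nova1 (0.92) and the chemokine gene Ccl11 (0.92). C1s1 was closest to Ddr2 (0.99), Meg3 (0.98) and Col6a2 (0.98), C1ra to Entpd2 (0.98), Cd248 (0.98) and Clec3b (0.97), and Serping1 to Loxl2 (0.99), Zfp9 (0.98) and Efemp2 (0.97). C1qb was closest to Gm15056, Trem2 and Folr2 (0.99 each) and C1qc to Trem2 (0.99), Folr2 (0.99) and Gdf3 (0.98). C1qa had Adgre1 (0.93), Nxpe5 (0.91) and Clec4a1 (0.89). The profiles share cells and libraries, and the values are descriptions.

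PBMCsec and vehicle were compared on UMIs summed per library and class, and no complement gene passed the test after the filter on low counts. Without that filter C1qa, C1qc and the ficolin gene Fcna passed in macrophages with DCs, among many other genes such as Hba-a1, Hba-a2 and Hbb-bs. These complement genes had also been tested with the filter and were not called there. In FBs, 0 of 9576 genes were called at an adjusted p under 0.05 (edgeR quasi-likelihood test, Benjamini-Hochberg), a background of 0%, with 89 lower and 95 higher genes in PBMCsec when p was left unadjusted (under 0.05), and 0 by DESeq2. Of the 9 genes, 5 passed the filter on low counts in FBs. All 5 log2 fold changes lay between -0.23 and 0.56, with a median of 0.11 against -0.0025 over all genes tested.

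Serping1 had the highest log2 fold change of the 5 in FBs. Its levels were 2161, 1914, 1666 and 1601 CPM in PBMCsec 1 to 4 and 868, 1121, 1545 and 1647 CPM in vehicle 1 to 4. The highest values were in PBMCsec 1 and 2 and the lowest in vehicle 1 and 2, and the groups overlapped through vehicle 4. The means were 1836 ± 256 and 1295 ± 365 CPM (SD, n = 4 each), a log2 fold change of 0.56 ± 0.24 (SE; edgeR unadjusted p = 0.0348, adjusted p = 1.0). The exact permutation test was run after TMM scaling, where the groups did not overlap (lowest PBMCsec library 1679, highest vehicle library 1640). The exact permutation p was 0.0286, the smallest that 70 labellings can give, and 0.314 after adjustment over 11 tests. How many of the 9576 genes tested in FBs also separated after TMM scaling was not counted, so this separation has no background. On CPM without this scaling the exact p was 0.0571 (adjusted p = 0.377), an alternative chosen after seeing the data. Within libraries 1 and 2 alone the log2 fold change was 1.09 ± 0.36, and within libraries 3 and 4 alone 0.12 ± 0.22. This split goes by library number only, and the labels name no batch or time behind it. Within the Mgp-type cluster, with at least 4 cells in each library, Serping1 was 2339 ± 519 against 1559 ± 344 CPM (n = 4 each), a log2 difference of 0.58 (exact p = 0.0571, adjusted p = 0.857 over 20 tests). The difference was 0.61 in the Cxcl12-type cluster (exact p = 0.171) and 0.27 in fascia-type cluster 4 (exact p = 0.257). Fascia-type cluster 14 had -0.015 (exact p = 0.971).

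C3 in FBs was 2389, 1632, 1850 and 1814 CPM in PBMCsec 1 to 4 and 3173, 3085, 1495 and 1683 CPM in vehicle 1 to 4. Vehicle 1 and 2 held the highest levels and vehicle 3 the lowest, so the groups overlapped. The log2 fold change was -0.23 ± 0.28 (edgeR adjusted p = 1.0; exact p = 0.686, adjusted p = 0.771), and it was 0.29 within libraries 3 and 4 alone. In vehicle 1, 51.6% of FBs were of fascia type, the clusters with much C3, against 21.4% to 40.8% in the other libraries. Vehicle 2, also high in C3, had 29.6%, and vehicle 4, with less C3, had 40.8%. The part of these shares in the C3 level was not tested. Within the fascia-type clusters C3 was 2770 ± 1177 against 4509 ± 1940 CPM in cluster 4 (exact p = 0.143) and 2511 ± 717 against 3971 ± 1444 CPM in cluster 14 (exact p = 0.0857), with adjusted p-values that did not pass. Vehicle 1 and 2 held 8 and 4 cells of each of these clusters. In the Mgp-type cluster C3 was 2280 ± 527 CPM in PBMCsec against 2146 ± 741 CPM in vehicle (log2 difference 0.13, exact p = 0.686). In the Cxcl12-type cluster it was 547 ± 282 against 440 ± 538 CPM (log2 difference 1.03, exact p = 0.371). That log2 difference is between means of logs and is larger than the CPM means give. Vehicle 1 and 2 held 4 cells each of the Cxcl12-type cluster. The log2 fold changes of C4b, C1s1 and C1ra in FBs were 0.03 ± 0.29, 0.11 ± 0.20 and 0.19 ± 0.21 (edgeR adjusted p = 1.0 for each), and the groups overlapped for all 3.

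**Figure D5:**
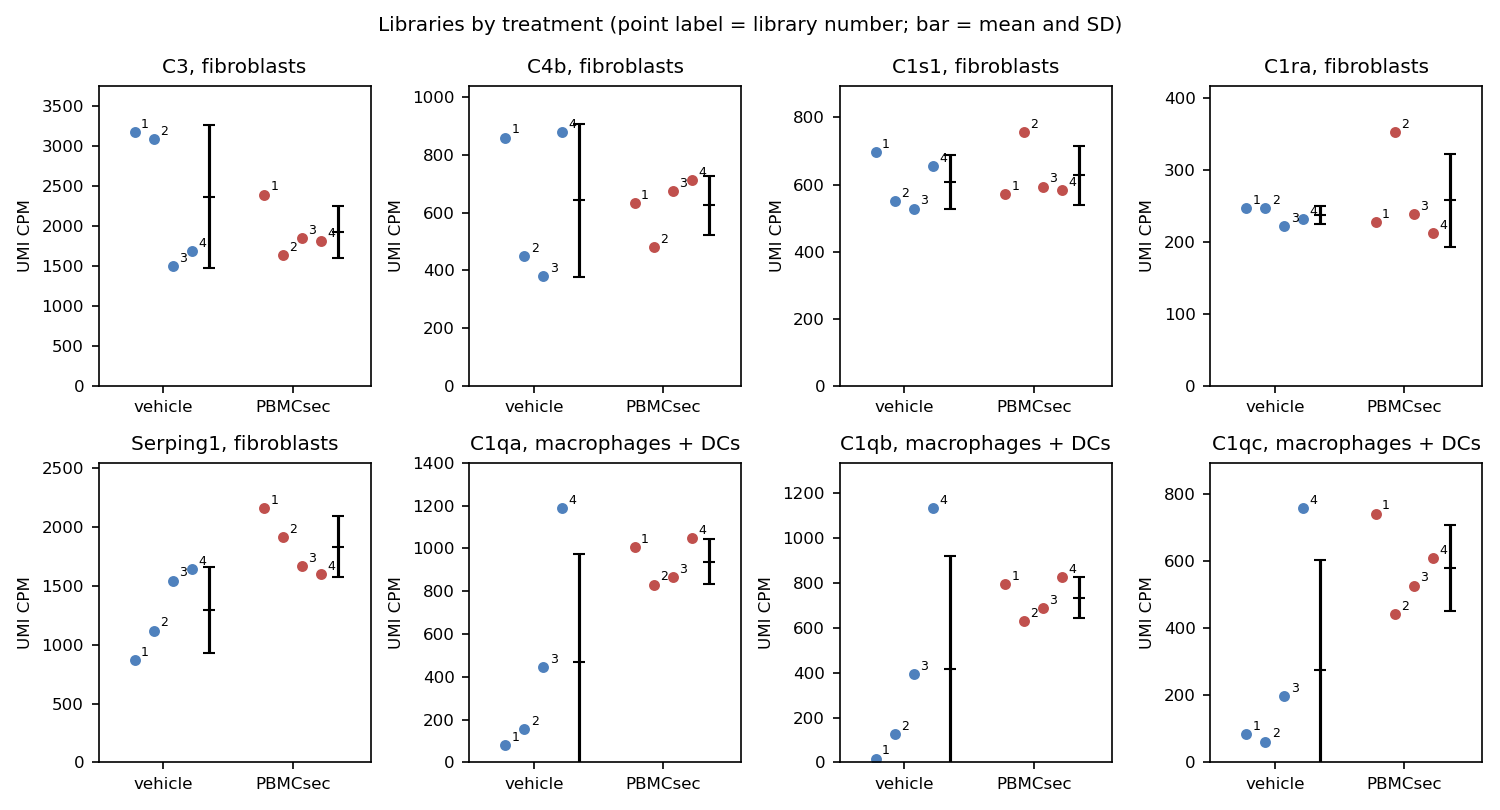
CPM (vertical) in vehicle (blue) and PBMCsec (red) libraries, for C3, C4b, C1s1, C1ra and Serping1 in fibroblasts and for the C1q chains in macrophages with dendritic cells. Points are libraries labelled by number, and the black mark beside them is the mean of 4 libraries with 1 SD, cut at 0. The groups overlap for Serping1, C3 and the C1q chains, with the lowest C1qa levels in vehicle 1 at 80.0 CPM and vehicle 2 at 156 CPM.

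Too few vehicle libraries held 10 macrophages, so macrophages and DCs were summed together for the test of treatment. Here 0 of 4533 genes were called (background 0%; without adjustment, 39 lower and 99 higher at p under 0.05; 3 genes called by DESeq2, none of them a complement gene). C1qa was 1006, 830, 867 and 1049 CPM in PBMCsec 1 to 4 and 80.0, 156, 446 and 1187 CPM in vehicle 1 to 4. The PBMCsec libraries were close to each other, and the vehicle libraries spread from the lowest to the highest value of all. The log2 fold change was 0.91 ± 0.56 for C1qa, 0.71 ± 0.68 for C1qb and 0.95 ± 0.55 for C1qc (edgeR adjusted p = 1.0 for each; exact p = 0.143, 0.171 and 0.143, adjusted p = 0.377 for each). Vehicle 1 and 2 held 17 cells and 11 cells of the sum. Leaving out vehicle 4 gave 1.96, 1.92 and 2.20, and leaving out vehicle 1 gave 0.55, 0.31 and 0.64. Within libraries 1 and 2 alone the values were 3.08, 3.71 and 2.96 (edgeR adjusted p = 0.0732, 0.162 and 0.0910), and within libraries 3 and 4 alone 0.20, -0.04 and 0.23. With no filter on low counts C1qa (0.96, edgeR adjusted p = 0.0285) and C1qc (1.0, adjusted p = 0.0338) passed the threshold, and C1qb (0.75, adjusted p = 0.269) did not. Many genes outside complement passed in that fit as well. DCs, with few C1q UMIs, were the larger part of the sum (234 cells against 158 macrophages). In macrophages alone C1qa was 2412, 2116, 3521 and 2339 CPM in PBMCsec 1 to 4. It was 273, 379, 1520 and 3813 CPM in vehicle 1 to 4, so the groups overlapped there too.

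In macrophages with DCs, same-numbered libraries deviated together for pairs 1, 3 and 4 (correlation 0.31, 0.33 and 0.30). Pair 2 had 0.11, close to the 0.11 of PBMCsec 2 with vehicle 1. With the library number as a replicate block 4 genes were called, Cxcl1, Clec4e, Ccl8 and Ier3. C1qa, C1qb and C1qc then had 1.43 ± 0.46, 1.37 ± 0.59 and 1.44 ± 0.44 (edgeR adjusted p = 0.549, 0.878 and 0.481). Of the macrophages, 55 of 106 (51.9%) in PBMCsec and 23 of 52 (44.2%) in vehicle had all 3 chains. By library these were 16 of 27, 8 of 13, 19 of 33 and 12 of 33 in PBMCsec 1 to 4 and 2 of 6, 1 of 5, 9 of 26 and 11 of 15 in vehicle 1 to 4, which overlapped. C4b, with 111 UMIs in all, was 99.3, 44.5, 33.6 and 6.61 CPM in PBMCsec and 40.0, 0, 11.9 and 3.64 CPM in vehicle. Its log2 fold change was 1.71 ± 0.78 (edgeR unadjusted p = 0.0479, adjusted p = 1.0; exact p = 0.171, adjusted p = 0.377). C3 had -0.15 ± 0.44 (edgeR adjusted p = 1.0).

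In keratinocytes 0 of 10585 genes were called (background 0%; without adjustment, 54 lower and 121 higher at p under 0.05; 0 by DESeq2). C3 alone among the 9 genes passed the filter, with 3.21, 93.5, 5.16 and 3.98 CPM in PBMCsec 1 to 4 and 0, 5.36, 7.26 and 2.83 CPM in vehicle 1 to 4. A single library, PBMCsec 2, was high, and the log2 fold change of 1.96 ± 1.15 (edgeR adjusted p = 1.0) was -0.15 without it.

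With the filter on low counts, 0 of the other complement genes were called in any class. Without it Fcna was called in macrophages with DCs, along with many genes outside complement (log2 fold change of Fcna 1.84, edgeR adjusted p = 0.00619). The values that follow are with the filter. In FBs 6 of the 16 tested were lower and 10 higher in PBMCsec (median log2 fold change 0.16), in macrophages with DCs 6 of 13 lower and 7 higher (0.09), and in keratinocytes 2 of 7 lower and 5 higher (0.17). Before adjustment 5 had p under 0.05, namely Hc, which encodes C5, in FBs (57.9 against 9.94 CPM, log2 fold change 2.43 ± 1.11) and Calr in FBs (0.55 ± 0.22), Fcna (1.77 ± 0.74) and Cd93 (0.84 ± 0.38) in macrophages with DCs, and Clu, the gene of the fluid-phase regulator clusterin, in keratinocytes (0.92 ± 0.41), each with an edgeR adjusted p of 1.0. They stand beside the counts of all genes at p under 0.05 given above for each class. The Hc means weigh each library equally, and pooled over all FBs Hc was 21.1 CPM from 286 UMIs.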

How the data were processed

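Dorsal skin cells of 8 libraries were measured by 10x 3′ single-cell RNA sequencing after whole-skin dissociation and sorting of viable cells. Raw UMI counts for each gene in each cell barcode were deposited by the authors. They aligned reads to mm10 with Cell Ranger, version 3.0.2 by the submitters' processing notes and the file headers. Cells were kept if they had 500 to 4000 genes, no more than 20000 UMIs and a mitochondrial share of 5% or less, and Gm42418, Gm17056 and Gm26917 were left out. After the study's methods, tests outside fibroblasts did without Col1a1, Col1a2 and Col3a1, and those outside keratinocytes without Krtdap, Krt14, Krt10, Krt5 and Krt1. Libraries were integrated and clustered with Seurat 5.3.0 (2000 variable genes without complement genes, 30 dimensions, resolution 1). A cluster was named where at least 3 markers of a fixed list were detected in 25% of its cells and raised 2-fold, a rule adjusted after the clusters were seen. It stayed unnamed where another class had more markers among its 10 most raised genes, as in cluster 3 with 314 cells. The same held where its cells were shallow and none of its markers were among those genes. Fibroblast clusters could also be named from a subtype list, as cluster 29 was. For the alternative limit of 10% mitochondrial counts, all cells were integrated, clustered and named anew. Scrublet (scanpy 1.11.5) called 25 cells (0.407%), a share too low to be used as doublet calls; as an alternative the 5% of cells with the highest scores (309) were left out.

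UMIs were summed per library and class (at least 10 cells) and tested with edgeR 4.0.16 (R 4.3.3; TMM, quasi-likelihood, filterByExpr, Benjamini-Hochberg over all genes tested) and, as an alternative, DESeq2 1.42.0. Single values were tested by exact two-sided permutation over libraries on log2 CPM, with TMM scaling for classes (prior count 2) and without it for fibroblast clusters, and the order of classes and clusters by exact sign-flip on log2(CPM + 10). Macrophages and dendritic cells were summed because fewer than 3 vehicle libraries held 10 macrophages. Library numbers were checked for pairing by the correlation of deviations from the group means: same-numbered libraries had 0.30 to 0.33 for 3 pairs and 0.11 for pair 2 in macrophages with dendritic cells, and in fibroblasts and keratinocytes at least 1 pair was below 0.1. The pairing comes from the data and not from the labels. The scripts were tested on simulated data with 200 changed genes.

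All 9 genes are named in every result that tests them. Of the other complement genes, those with an unadjusted p under 0.05 and the 6 highest in fibroblasts and in macrophages are named, except for 1 gene that is not reported here, and any further gene was picked once its values were known. The genes, lists and tests were chosen with earlier results of these data known. Coordinates are from GENCODE M21 and RefSeq, both GRCm38.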

Additional observations from a re-analysis of the deposited data

Results flagged for a closer look

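Of 22 groups of 4 libraries checked with Dixon's criterion, 2 held a library far from the other 3, where chance gives about 1 in 20 groups. C1s1 in fibroblasts of PBMCsec 2 was 757 CPM, against 572, 594 and 585 CPM in PBMCsec 1, 3 and 4, and this library was also the highest for C1ra with 353 CPM and held 70 fibroblasts. C3 in keratinocytes of PBMCsec 2 was 93.5 CPM, against 3.21 to 5.16 CPM in the other PBMCsec libraries. Of its 50 C3 UMIs, 46 lay in 4 of 57 keratinocytes, the highest with 29, and all 4 cells were among the 5% with the highest Scrublet scores. Those 4 cells held 2 UMIs of collagen and decorin genes and 9 of C4b.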

How the results depend on the processing

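Calls across genes stayed at 0 in keratinocytes under every alternative run. In fibroblasts libraries 1 and 2 alone gave 3 calls (Duoxa2, F3, Inmt) and every other alternative 0. In macrophages with dendritic cells DESeq2 gave 3 calls and no filter on low counts 89 (25 lower, 64 higher). Among the 89 were C1qa with 0.96 (edgeR adjusted p = 0.0285), C1qc with 1.0 (adjusted p = 0.0338) and Fcna with 1.84 (adjusted p = 0.00619). All 3 had passed the filter as well and were not called with it. Libraries 3 and 4 alone gave 1 call, removal of the highest Scrublet scores 1 and a limit of 3000 genes per cell 1. With each library left out in turn there were 0 to 1, the 1 being Ccl8 without vehicle 2. With the replicate block, 4 genes were called in macrophages with dendritic cells and 0 in fibroblasts and keratinocytes, and no complement call changed.

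Of 185 log2 fold changes of the 9 genes under alternatives, 165 kept direction and side of the threshold, 18 reversed, none of them called, and the 2 of C1qa and C1qc without the filter passed. Reversals, with causes not tested, were C4b in fibroblasts in libraries 1 and 2 alone (-0.16), without the highest Scrublet scores (-0.046) and in fascia-type clusters alone (-0.33), C3 in fibroblasts in libraries 3 and 4 alone (0.29), C1s1 at 3000 genes per cell (-0.0058) and in fascia-type clusters alone (-0.0067), and C1ra in the latter (-0.16). In macrophages with dendritic cells they were C3 at 3000 genes (0.43) and C1qb in libraries 3 and 4 alone (-0.042) and at 3000 genes (-0.063), and in keratinocytes C3 in libraries 3 and 4 alone (-0.11) and at 10% mitochondrial counts (-0.33). Leaving out each library in turn gave -0.16 to 0.25 for C4b in fibroblasts (negative without PBMCsec 4, vehicle 2 or vehicle 3), -0.54 to 0.23 for C3 in macrophages with dendritic cells (positive without PBMCsec 4 or vehicle 2), -0.15 to 2.52 for C3 in keratinocytes (negative without PBMCsec 2) and 0.40 to 0.72 for Serping1 in fibroblasts. Of 46 class levels, 41 moved by less than their spread and 5 moved, all at 10% mitochondrial counts, C4b in macrophages (319 against 79.4 CPM), C3 in dendritic cells (84.0 against 31.8 CPM) and the 3 C1q chains in dendritic cells. At that limit the cells were also clustered and named anew. The planned test of treatment within fibroblast clusters could not be made at 10 cells per library in 3 libraries of each group.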
